A study of Mus musculus with 6 samples.

Results

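The 10 genes described here encode the 3 TGF-beta ligands (Tgfb1, Tgfb2 and Tgfb3), the 3 receptors that bind them (Tgfbr1, Tgfbr2 and Tgfbr3) and the 4 latent TGF-beta binding proteins (Ltbp1, Ltbp2, Ltbp3 and Ltbp4). They were chosen by symbol, and all 10 were found among the 24346 genes listed per library. RNA-seq measured expression in mouse cranial base cartilage, in 3 libraries coded FP and 3 coded RR, each group numbered 11, 14 and 16. The study set flat against round chondrocytes of the spheno-occipital synchondrosis, a growth cartilage of the skull base whose layers were isolated by laser microdissection, and the labels do not spell out the codes. All FP and RR mice carried Gli1CreERT2, a tamoxifen-activated Cre recombinase expressed where the hedgehog target gene Gli1 is active, together with an allele labelled Tomato flox, and all were injected with tamoxifen at postnatal day 3. No group lacked the transgene or the tamoxifen, and neither the age of the mice nor the number of mice behind each library is stated in the sources used here, so p-values measure the spread between libraries, which may be technical.

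TGF-beta ligands are secreted in an inactive form, folded inside their own propeptide, and most are anchored to the extracellular matrix through an LTBP until proteases, integrins or thrombospondin release them. The free ligand assembles Tgfbr2 with the kinase Tgfbr1, which phosphorylates SMAD2 and SMAD3, while Tgfbr3 (betaglycan) holds ligand at the cell surface. In mouse cartilage this pathway is known for restraining the hypertrophic maturation of chondrocytes, and loss of Ltbp3 in mice is known for early closure of the cranial base synchondroses.

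Levels are given in FPKM, which divides a gene's fragments by transcript length and by the library's fragments, so that genes can be set side by side. On a transcript of 1 kb, 1 fragment was worth between 0.256 FPKM (FP 11) and 0.592 FPKM (RR 14), a 2.31-fold range of depth if libraries were not rescaled, and the total number of fragments is unknown. With the longest annotated transcript as length, the members stood on roughly 14.2 fragments (Ltbp1 in FP 14) to 1959 fragments (Tgfbr2 in RR 16). RR 14 stood apart from the other libraries, with a mean Pearson's r across genes of 0.791 with the other 5 libraries, against 0.823 to 0.842 for those 5. The cartilage matrix gene Col2a1, 1 of 9 listed chondrocyte markers, was at 41112 to 74248 FPKM in FP and 38697 to 81873 FPKM in RR. Other markers of that list, Acan, Sox9, Col11a1 and Matn3, were higher in FP without overlap, as were 8.74% of all tested genes. Sox9 was at 270 to 360 FPKM in FP and 122 to 207 FPKM in RR. The rest, Col9a1, Col9a2, Hapln1 and Matn1, overlapped between the groups. Summed over 8 hypertrophic chondrocyte markers, FPKM was 1093 to 1353 in FP and 124 to 178 in RR, and over 6 resting chondrocyte markers 192 to 291 in FP and 2760 to 3661 in RR. The limma test described below called 0 of the 9 chondrocyte, 7 of the 8 hypertrophic and all 6 resting markers. It called 0.967% of all tested genes. The marker lists were chosen with earlier results of these data known, so these counts are descriptions. Both marker sums moved with the groups, and their part in the results below was not tested.

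None of the 10 genes passed the test between FP and RR, while Tgfb1 was 3.21-fold higher and Tgfb3 2.69-fold lower in FP by their means. The limma test on log2(FPKM + 1), adjusted over the 14789 genes whose mean reached 1 FPKM, called 0 of the 10 members at an adjusted p under 0.05, where 0.967% of all tested genes were called (0.554% higher and 0.412% lower in FP). That test had no block for the library number, since the labels do not say what a number marks. With such a block it called 2 members, Tgfb1 and Tgfb3, and 271 of all genes, against 143 without. At an unadjusted p under 0.05 there were 4 members, with Tgfb1 higher in FP and Tgfb3, Ltbp2 and Ltbp3 lower, against 10.3% of all genes (5.77% higher and 4.55% lower). The FP and RR values did not overlap for 5 members, 1 higher in FP and 4 lower, where 16% of all genes were apart in this way (8.74% higher and 7.28% lower). By their estimates 9 of the 10 were lower in FP, as were 48.4% of all genes, and the median log2 change was -0.38 for the members and 0.02 for all tested genes. The members were chosen with results of these data known, so these counts are descriptions. In bulk samples, fewer cells of a type and less RNA per cell cannot be told apart.

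**Figure D1:**
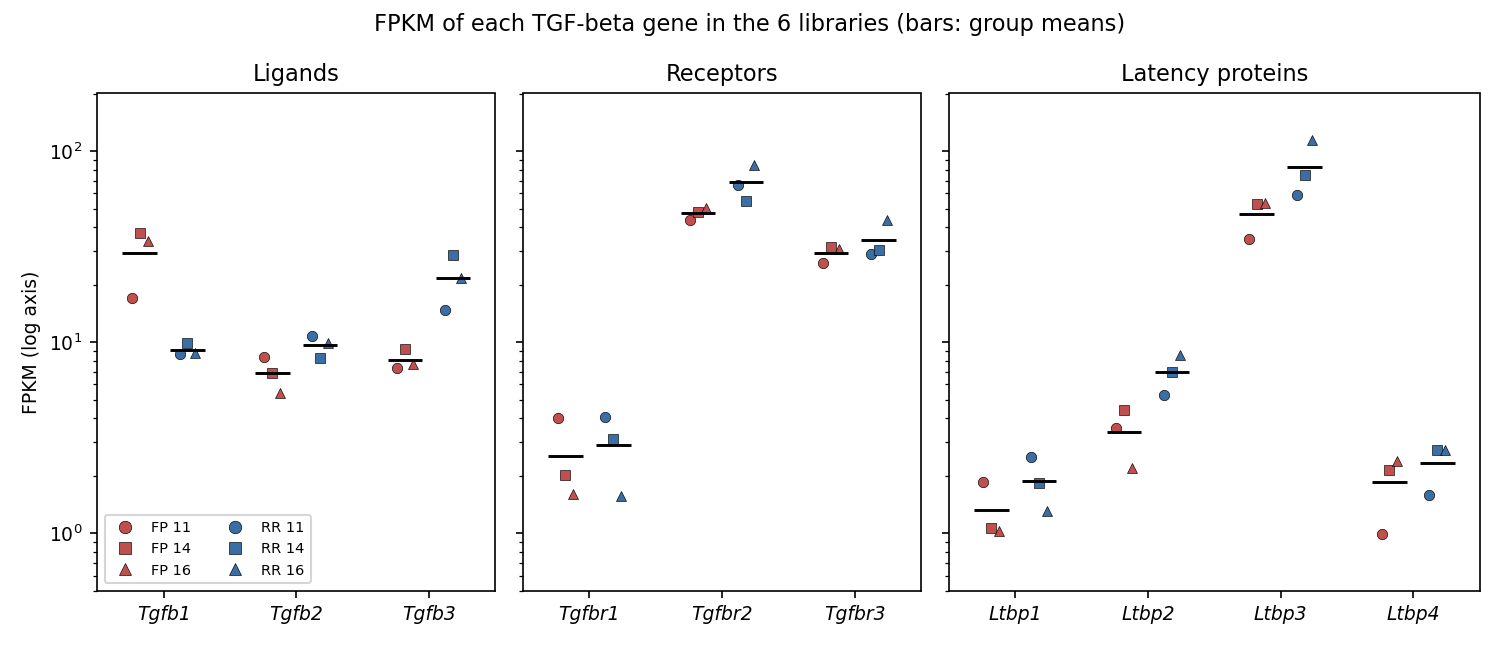
FPKM (log axis) of the 10 genes in each library, red for FP and blue for RR, with the library number given by the symbol and group means as bars. Tgfb1 is the 1 gene whose 3 FP values all lie above its RR values, while Tgfb3, Tgfbr2, Ltbp2 and Ltbp3 have all FP values below all RR values.

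Of the ligand promoters, the 250 bases before the RefSeq start sites of Tgfb1 and Tgfb2 (GRCm38.p6) are shown. Tgfb3, the ligand lower in FP without overlap, had no promoter entry. Tgfb1 averaged higher in FP than in RR, and Tgfb2 averaged lower with groups that overlapped. Capitals mark matches on either strand to the GC box GGGCGG, the TATA box TATAAA and the E-box CACGTG, none of which overlap. Tgfb1 lies at chr7:25686752-25687001 on the plus strand and Tgfb2 at chr1:186705990-186706239 on the minus strand, each written 5′ to 3′ in the direction of transcription.
Tgfb1: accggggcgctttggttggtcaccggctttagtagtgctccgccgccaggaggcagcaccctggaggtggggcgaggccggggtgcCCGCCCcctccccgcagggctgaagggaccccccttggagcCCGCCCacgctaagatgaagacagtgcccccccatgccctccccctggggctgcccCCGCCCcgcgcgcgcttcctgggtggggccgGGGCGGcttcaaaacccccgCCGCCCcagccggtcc
Tgfb2: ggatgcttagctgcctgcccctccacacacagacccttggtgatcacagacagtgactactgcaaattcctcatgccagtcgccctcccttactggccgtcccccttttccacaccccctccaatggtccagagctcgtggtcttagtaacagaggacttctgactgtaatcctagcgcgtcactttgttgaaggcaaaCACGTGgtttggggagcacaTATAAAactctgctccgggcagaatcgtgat

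The Tgfb1 window held 5 GC boxes and 75.2% G and C, and no TATA box. The Tgfb2 window held 1 TATA box, 1 E-box and 53.6% G and C, and no GC box. Among 32817 promoter windows of the same length, 32.7% held the GC box, 12.4% the TATA box and 6.02% the E-box, and the median G and C content was 52.4%. Of the 10 members, 8 had a promoter entry in RefSeq's table, all but Tgfb3 and Tgfbr3. The SMAD motif CAGAC was also searched and is not marked above. It matched at 2 places in the Tgfb2 window and 0 in the Tgfb1 window, and 42.2% of all windows held it. The AP-1 motif TGANTCA matched in neither window and in 6.75% of all windows. The matches describe these letters only and were not tested against expression.

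Tgfb1 encodes TGF-beta 1, the ligand most widely expressed in mouse tissues. It was at 17.1, 37.0 and 33.8 FPKM in FP 11, 14 and 16, and at 8.71, 9.87 and 8.82 FPKM in RR 11, 14 and 16. Every FP value was above every RR value, and the FP libraries varied far more among themselves, at 29.3 ± 10.7 FPKM in FP and 9.13 ± 0.64 FPKM in RR (SD, n = 3 each). The log2 change was 1.51 ± 0.33 (SE, 95% interval 0.77 to 2.25), with a limma adjusted p of 0.095, and an exact two-sided permutation test gave p = 0.10, the smallest that 3 against 3 libraries allow. Without FP 11, the lowest FP value, the log2 change was 1.85 and the limma adjusted p 0.0375, and without RR 14 they were 1.56 and 0.245. Weighting the libraries by their fit gave 1.64 and a limma adjusted p of 0.0453. A block for the library number left the log2 change at 1.51, with a limma adjusted p of 0.0459. Platelets and leukocytes are rich in Tgfb1, and their marker sums overlapped between the groups. The 6 platelet markers summed to 4.75, 3.40 and 5.89 FPKM in FP and to 13.03, 9.05 and 4.304 FPKM in RR, with 4 of the 6 listed at 0 in some library, Pf4 among them. Summed over 8 macrophage and leukocyte markers, FPKM was 21.5, 20.6 and 86.9 in FP and 77.2, 23.4 and 24.01 in RR. Of these sums, Lyz2 alone gave 76.4 FPKM in FP 16 and 41.8 FPKM in RR 11. The defining marker Ptprc was at 0.337 to 1.197 FPKM in FP and 0.215 to 1.83 FPKM in RR. Tyrobp was lower in FP without overlap, at 0 to 3.80 FPKM against 4.81 to 7.32 FPKM in RR, and the rest of that list overlapped.

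Tgfb3 encodes TGF-beta 3, a ligand known in the mouse for fusion of the palate. It was at 7.32, 9.21 and 7.69 FPKM in FP 11, 14 and 16, and at 14.8, 28.5 and 21.8 FPKM in RR 11, 14 and 16. All RR values lay above all FP values, with means of 8.07 ± 1.003 FPKM in FP and 21.7 ± 6.87 FPKM in RR (SD, n = 3 each). The log2 change was -1.28 ± 0.30 (SE, 95% interval -1.96 to -0.61), with a limma adjusted p of 0.125 and an exact permutation p of 0.10. Exons of Tgfb3 overlap those of other annotated genes on the opposite strand, whose values were not used here. The highest value came from RR 14, and without that library the log2 change was -1.07 with a limma adjusted p of 0.338. A block for the library number left the log2 change at -1.28, with a limma adjusted p of 0.0449. Tgfb2, the ligand that depends most on Tgfbr3 for binding, was at 8.31, 6.89 and 5.41 FPKM in FP libraries and at 10.7, 8.26 and 9.88 FPKM in RR. Its groups overlapped through FP 11 and RR 14 alone, and the log2 change of -0.44 had a 95% interval of -1.04 to 0.16 (limma adjusted p = 0.665).

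The leading ligand by FPKM was Tgfb1 in each FP library and Tgfb3 in each RR library, while the sum of the 3 overlapped between the groups. Summed ligand FPKM was 32.7, 53.1 and 46.9 in FP and 34.2, 46.6 and 40.5 in RR. Tgfb1 made up 52.2%, 69.7% and 72.1% of that sum in FP 11, 14 and 16, and 25.5%, 21.2% and 21.8% in RR 11, 14 and 16. Tgfb3 made up 22.4%, 17.3% and 16.4% in FP and 43.2%, 61.1% and 53.8% in RR. The ratio of Tgfb1 to Tgfb3 within a library, which no rescaling of whole libraries can alter, was 2.33, 4.02 and 4.401 in FP and 0.59, 0.346 and 0.405 in RR. Both shares and the ratio were picked after the values were known and carry no test.

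**Figure D2:**
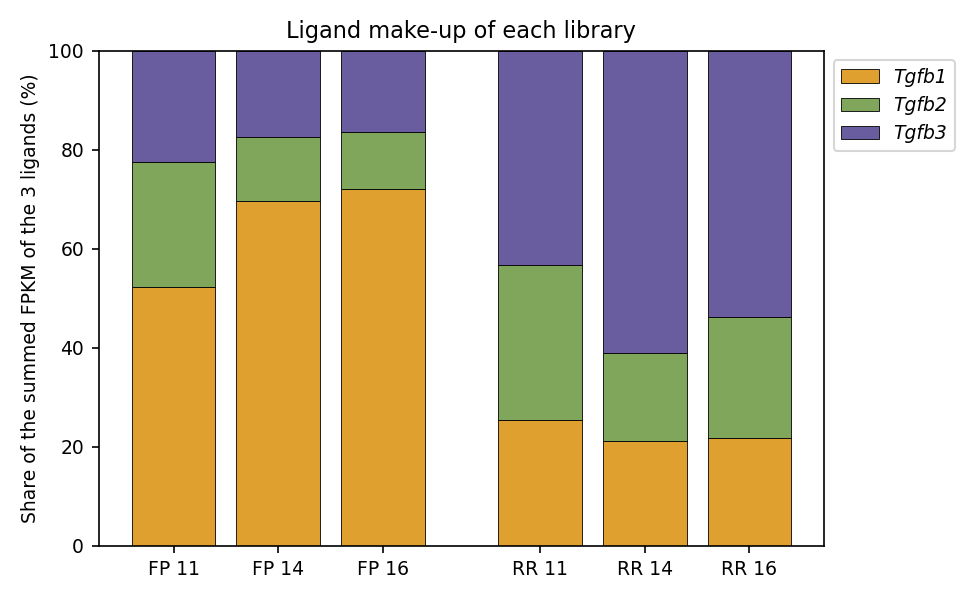
Share of each ligand in the summed FPKM of Tgfb1, Tgfb2 and Tgfb3, in percent, as 1 stacked bar for each of the 3 FP and 3 RR libraries. Tgfb1 takes 52.2% to 72.1% in FP and 21.2% to 25.5% in RR, and Tgfb3 takes 16.4% to 22.4% in FP and 43.2% to 61.1% in RR.

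Among the receptors, Tgfbr2 and Tgfbr3 transcripts were abundant in both groups and Tgfbr1 was low. Tgfbr2, the receptor that first binds ligand, was at 43.3, 47.9 and 50.3 FPKM in FP libraries and at 66.0, 55.0 and 84.3 FPKM in RR. The 3 FP values lay close together below the RR values, and the log2 change of -0.51 had a 95% interval of -1.11 to 0.09 (limma adjusted p = 0.598, exact permutation p = 0.10). Tgfbr1, the kinase that signals to SMAD proteins, was at 4.01, 2.01 and 1.60 FPKM in FP libraries and at 4.04, 3.13 and 1.56 FPKM in RR. In both groups library 11 was highest and library 16 lowest, and the log2 change was -0.15 (95% interval -1.02 to 0.73, limma adjusted p = 0.951), with a sign that turned to 0.05 without FP 16 and to 0.06 without RR 11. Tgfbr3 was at 26.1, 31.4 and 30.7 FPKM in FP libraries and at 29.1, 30.5 and 43.4 FPKM in RR, a log2 change of -0.20 with a 95% interval of -0.80 to 0.40 (limma adjusted p = 0.873). Tgfbr2 transcripts exceeded those of Tgfbr1 by 10.8, 23.8 and 31.5 times in FP and 16.3, 17.6 and 54.1 times in RR, ranges that overlapped.

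Ltbp3 was the main latency gene of both groups and was lower in FP by its mean. It was at 34.6, 52.9 and 53.5 FPKM in FP libraries and at 58.9, 74.5 and 113.8 FPKM in RR. The groups were apart by a small margin, and the log2 change was -0.77 ± 0.33 (SE, 95% interval -1.52 to -0.02, limma adjusted p = 0.474, exact permutation p = 0.10).

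The other latency genes were far below Ltbp3 in every library. Of all tested genes, 54.2% had a lower mean than Ltbp2, against 26.2% for Ltbp4 and 17.6% for Ltbp1. Ltbp2, whose protein sits in microfibrils and does not bind latent TGF-beta, was at 3.53, 4.44 and 2.199 FPKM in FP libraries and at 5.31, 7.003 and 8.56 FPKM in RR. Its groups did not overlap, with a log2 change of -0.87 ± 0.30 (SE, 95% interval -1.57 to -0.18, limma adjusted p = 0.340, exact permutation p = 0.10). D030025P21Rik, whose exons overlap on the other strand, was at 0.184, 0.855 and 1.16 FPKM in FP libraries and at 1.78, 2.13 and 1.93 FPKM in RR. The sources used here do not say whether counting used strand, so reads of shared exons may not have been separated. Ltbp1, which with Ltbp3 anchors all ligands, was at 1.86, 1.07 and 1.02 FPKM in FP libraries and at 2.51, 1.83 and 1.31 FPKM in RR. Ltbp4, a weak binder of TGF-beta 1, was at 0.988, 2.15 and 2.40 FPKM in FP libraries and at 1.57, 2.72 and 2.72 FPKM in RR. Both overlapped between the groups, with 95% intervals of -1.12 to 0.49 for Ltbp1 and -1.04 to 0.55 for Ltbp4 on the log2 scale. Ltbp3 made up 84.4%, 87.4% and 90.5% of the summed FPKM of the 4 LTBP genes in FP and 86.2%, 86.6% and 90.0% in RR. That share overlapped between the groups. Without RR 14, the log2 changes were -0.65 for Tgfbr2, -0.86 for Ltbp2 and -0.82 for Ltbp3, with limma adjusted p of 0.644, 0.619 and 0.702.

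**Figure D3:**
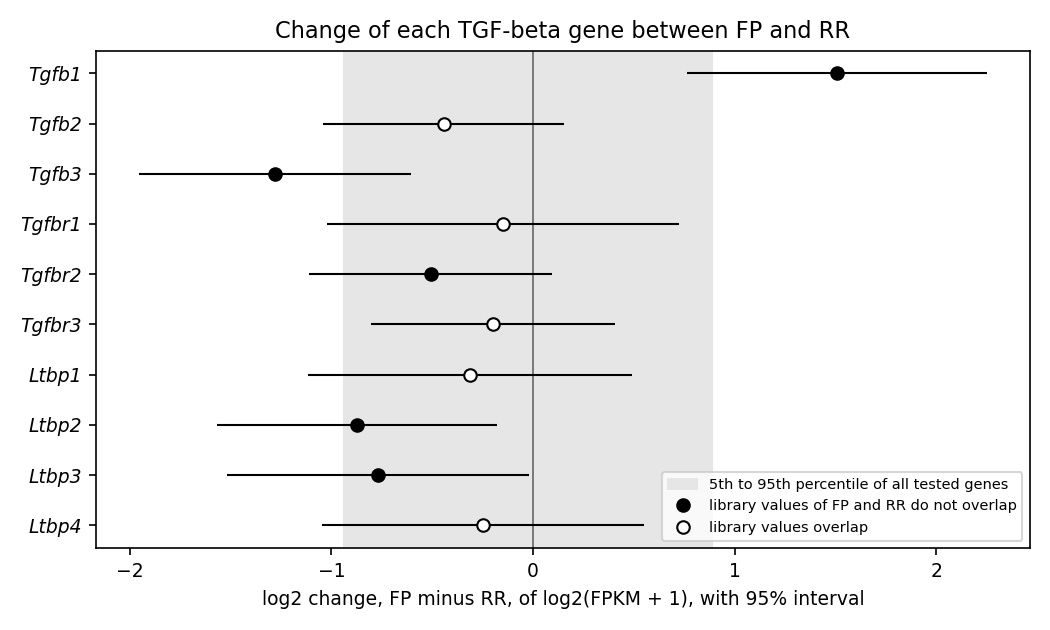
Log2 change (FP minus RR, on log2(FPKM + 1)) of each of the 10 genes with its 95% interval from limma, over the band from -0.94 to 0.89 that holds the 5th to 95th percentile of all tested genes. Filled points mark the 5 genes whose FP and RR values do not overlap; Tgfb1 at 1.51 and Tgfb3 at -1.28 lie outside the band.

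Ordered by mean FPKM, the FP libraries held Tgfbr2 and Ltbp3 at the top, then Tgfbr3 and Tgfb1, then Tgfb3 and Tgfb2, and last Ltbp2, Tgfbr1, Ltbp4 and Ltbp1. Neighbours within each of these sets overlapped, and genes of different sets were apart, except that the highest Tgfb1 value (37.0 FPKM) exceeded the lowest Ltbp3 value (34.6 FPKM). In RR the order was Ltbp3 and Tgfbr2, then Tgfbr3, then Tgfb3, then Tgfb2 and Tgfb1, then Ltbp2, and last Tgfbr1, Ltbp4 and Ltbp1. There too neighbours within a set overlapped and genes of different sets were apart, except that the highest Ltbp2 value (8.56 FPKM) exceeded the lowest Tgfb2 value (8.26 FPKM). Tgfb1 overlapped Tgfbr3 and Ltbp3 in FP, and Tgfb2 in RR. Over all 6 libraries, 96.5% of tested genes had a lower mean than Ltbp3 and 96.0% a lower mean than Tgfbr2, against 34.3% for Tgfbr1 and 17.6% for Ltbp1.

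The genes most like Tgfb1, the member with the smallest p, were sought among 6545 other genes that averaged 5 FPKM or more, by the root mean square difference of centred log2 profiles over the 6 libraries. They were Hivep3 (0.179), a zinc finger gene, Gna12 (0.204), a G protein alpha subunit, and Foxa2 (0.208), a forkhead transcription factor. All 3 shared the low FP 11 value: Hivep3 was at 5.13, 8.98 and 10.1 FPKM in FP libraries and at 2.43, 2.66 and 2.89 FPKM in RR. The 6 libraries are the same that define the profile, so the likeness is a description.

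Around the members, 66 of 75 listed pathway genes could be tested, and 1 was called higher and 3 lower in FP, where 0.967% of all tested genes were called. The 4 genes came from the lists of latent ligand activation and of matrix partners, and whether these lists differ from the others was not tested. Thbs1 encodes thrombospondin 1, which activates latent TGF-beta. It fell to 451, 342 and 346 FPKM in FP, against 1347, 1041 and 1253 FPKM in RR, a log2 change of -1.68 ± 0.30 (SE, limma adjusted p = 0.0449). It was the 1 gene called of 10 tested for latent ligand activation, whose median log2 change was 0.06. Furin, the protease that cleaves the ligand from its propeptide, was next by p, at 55.9, 88.4 and 103 FPKM in FP libraries and at 35.6, 44.3 and 83.1 FPKM in RR (limma adjusted p = 0.667).

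Of 11 matrix partners of latent complexes and ligands, 1 was called higher and 2 lower in FP, with a median log2 change of -0.70. By their estimates 8 were lower in FP and 3 higher, where 48.4% of all tested genes were lower. Without overlap, 4 were lower in FP and 1 higher, against 7.28% and 8.74% of all tested genes. Fbn2 and Fmod were lower in this way but not called (limma adjusted p = 0.402 and 0.340). Fbn1, the fibrillin 1 scaffold to which LTBPs attach, fell to 14.8, 10.1 and 12.3 FPKM in FP, against 47.6, 31.3 and 46.8 FPKM in RR (log2 change -1.67 ± 0.28, limma adjusted p = 0.0341). Dcn encodes decorin, a proteoglycan that binds TGF-beta, and fell to 59.3, 58.2 and 38.3 FPKM in FP, against 294, 147 and 206 FPKM in RR (limma adjusted p = 0.0341). Tgm2, a transglutaminase that cross-links matrix proteins, LTBP1 among them, rose to 50.4, 48.4 and 66.3 FPKM in FP, against 10.9, 5.90 and 18.9 FPKM in RR (log2 change 2.24 ± 0.39, limma adjusted p = 0.0393). None of these 4 calls was stable to the loss of a library: those of Thbs1, Fbn1 and Dcn ended without any 1 of FP 11, FP 14, FP 16, RR 11, RR 14 or RR 16 (limma adjusted p up to 0.295, 0.176 and 0.20), and that of Tgm2 without any but RR 16 (up to 0.186). Dcn is also on the list of 8 fibroblast and perichondrium markers, which summed to 731, 601 and 208 FPKM in FP and to 1470, 395 and 356 FPKM in RR. Of these sums, Col1a1 alone gave 596 FPKM in FP 11 and 1076.5 FPKM in RR 11. Pdgfra and Col14a1 were, like Dcn, lower in FP without overlap, as were 7.28% of all tested genes. The rest, Col1a1, Col3a1, Postn, Thy1 and Dpt, overlapped between the groups. The part of such cells in the Dcn values was not tested.

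No gene of the other lists was called by limma. Among 6 accessory and antagonist receptors (median log2 change -0.01, 1 with an unadjusted p under 0.05), Bambi, a decoy receptor that lacks the kinase, was at 6.005, 7.48 and 7.07 FPKM in FP libraries and at 1.45, 2.096 and 3.06 FPKM in RR (limma adjusted p = 0.095). Eng, the endoglin co-receptor, was at 5.21 ± 1.03 FPKM in FP and 6.73 ± 1.25 FPKM in RR (SD, n = 3 each). Of 15 genes of the SMAD2/3 relay and its brakes (median 0.09, 2 with an unadjusted p under 0.05), Smad7, the inhibitory SMAD that TGF-beta itself induces, was at 6.36, 10.7 and 9.88 FPKM in FP libraries and at 3.31, 3.90 and 4.16 FPKM in RR (limma adjusted p = 0.189). Smad3, a signal transducer, was at 8.07, 12.6 and 10.9 FPKM in FP libraries and at 4.16, 6.77 and 7.54 FPKM in RR (limma adjusted p = 0.475). For Bambi, Smad7 and Smad3 the lowest FP value exceeded the highest RR value, as it did for 8.74% of all tested genes. An unadjusted p under 0.05 in the limma test was reached by 10.3% of all tested genes.

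The 7 tested activin genes had a median log2 change of -0.02 (1 with an unadjusted p under 0.05), with Inhbb, an activin subunit, at 0.114, 0.226 and 1.24 FPKM in FP libraries and at 1.12, 3.16 and 2.64 FPKM in RR, and Inha at 3.65 ± 1.35 FPKM in FP and 5.30 ± 2.08 FPKM in RR (SD, n = 3 each). The 17 tested response genes, picked as genes that TGF-beta is known to induce or regulate in various cells, had a median of -0.10 with 8 estimates above 0 and 9 below (2 with an unadjusted p under 0.05). Timp1, a metalloprotease inhibitor, was at 24.2, 13.6 and 11.2 FPKM in FP libraries and at 5.12, 0.877 and 5.69 FPKM in RR (limma adjusted p = 0.18). Snai1, a transcriptional repressor, was at 18.7, 27.1 and 15.0 FPKM in FP libraries and at 8.11, 8.48 and 13.2 FPKM in RR (limma adjusted p = 0.303). Among all tested genes, 10.3% had an unadjusted p under 0.05 in the limma test. Many of these response genes answer to other signals as well.

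**Figure D4:**
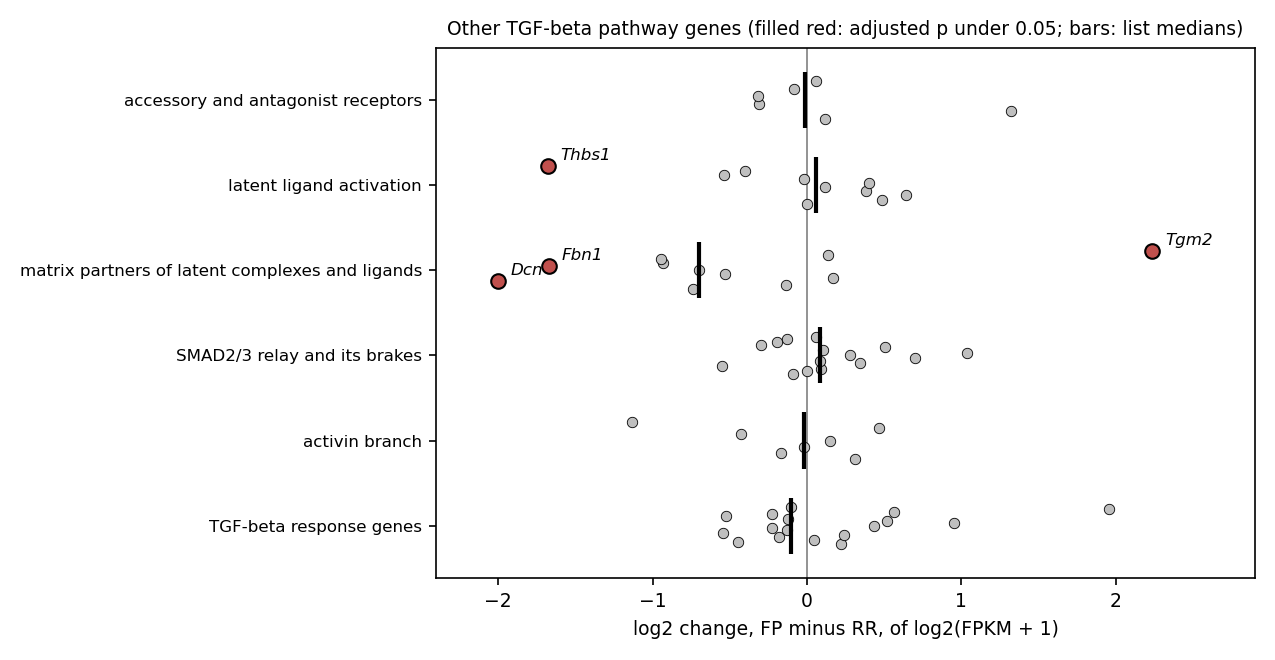
Log2 change (FP minus RR, on log2(FPKM + 1)) of the 66 tested genes of 6 pathway lists, 1 point a gene, with list medians as bars and genes at an adjusted p under 0.05 in red. The 4 called genes are Thbs1, Fbn1 and Dcn on the lower side and Tgm2 on the higher, and list medians run from -0.70 for the matrix partners to 0.09 for the SMAD2/3 relay.

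On mm10 with GENCODE M21, the ligand genes lie at chromosome 7 from 25687002 to 25705077 (Tgfb1), chromosome 1 from 186622792 to 186705989 (Tgfb2) and chromosome 12 from 86056745 to 86079041 (Tgfb3). The receptor genes lie at chromosome 4 from 47353222 to 47414931 (Tgfbr1), chromosome 9 from 116084293 to 116175360 (Tgfbr2) and chromosome 5 from 107106570 to 107289629 (Tgfbr3). The latency genes lie at chromosome 17 from 75005568 to 75392512 (Ltbp1), chromosome 12 from 84783212 to 84876532 (Ltbp2), chromosome 19 from 5740904 to 5758532 (Ltbp3) and chromosome 7 from 27305136 to 27337692 (Ltbp4). Exons of Tgfb2 and Tgfbr3 also overlap exons of other annotated genes whose values were not used here.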

How the data were processed

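The 6 mouse libraries (3 FP and 3 RR, codes from the titles) hold 1 deposited FPKM value for each of 24346 symbols, per the file headers. TopHat2 2.1.1, Bowtie2 2.2.8, SAMtools 0.1.18, Cuffdiff 2.2.1 and build mm10 are named in the submitters' processing notes. Their order, the annotation, the scaling and the use of strand are not given in the sources used. Total RNA came from laser-dissected frozen sections, with SMARTer stranded libraries for very small inputs, per the labels.

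The test was limma 3.58.1 (R 4.3.3) on log2(FPKM + 1), with an intensity trend, FP minus RR, two-sided and with no block, for genes that averaged 1 FPKM or more, with Benjamini-Hochberg adjustment over all of them and a threshold of 0.05. This scale understates the change of low genes, and folds are ratios of mean FPKM. Exact permutation tests used SciPy 1.17.1. Depth was read from FPKM times transcript length, which fell on steps of 1 fragment (70.5% to 74.1% of low values whole within 0.1 fragments, against 20% by chance). A value listed at 0 may be a failed estimate.

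Members, lists and tests were chosen with earlier results of these data known. Beside the members, the text names up to 4 called genes of each list, or the 2 with the smallest p, and the 3 genes most like the member with the smallest p. D030025P21Rik, Fbn2, Fmod, Col2a1 and the further marker genes were not part of that rule. Ccn2 was matched as Ctgf. Alternatives changed the pseudocount, filter, scaling, trend, weights, block and libraries.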

Additional observations from a re-analysis of the deposited data

How the results depend on the processing

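The 10 alternatives with all libraries kept the sign of every member they tested; the filter at a mean of 5 FPKM left out Tgfbr1, Ltbp1 and Ltbp4. Members called were 1 with library weights (Tgfb1, adjusted p = 0.0453) and 2 with the replicate block (Tgfb1, 0.0459, and Tgfb3, 0.0449), and 0 to 1 with 1 library left out (Tgfb1 without FP 11). Over all alternatives the adjusted p ran from 0.0375 to 0.365 for Tgfb1 and from 0.0449 to 0.41 for Tgfb3. The log2 change of Tgfbr1 ran from -0.43 to 0.0645 with 1 library left out, above 0 without FP 16 (0.0467) and without RR 11 (0.0645). The 4 called pathway genes were 2 without a filter, 0 without an intensity trend and 0 to 1 with 1 library left out. All genes called were 143, against 271 with the replicate block, 83 without a trend and 42 to 85 with 1 library left out. The cause of these differences was not tested, beyond the fewer libraries in the last.

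Libraries of a number deviated together at r = 0.319, 0.185 and 0.089 for numbers 11, 14 and 16, each library correlating best with its own number. The titles give the FP and the RR library of a number the same code (rG11, rG14 or rG16), but the labels do not say what a number marks. Whether the libraries are paired by design is therefore not known, and the correlations cannot decide it. The main test used no block.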
